A study of Mus musculus with 2 samples.

Results

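Bone morphogenetic protein (BMP) signalling in the ovulating ovary was read through 9 genes: the ID genes Id1, Id2, Id3 and Id4, the ligand genes Bmp2 and Bmp4, the secreted antagonist gene Grem1, and the inhibitory SMAD genes Smad6 and Smad7. They were taken by name, as every probe set that the platform annotation gives exactly 1 symbol from this list. This gave 14 probe sets for 9 of the 18193 genes on the array, and all 9 genes were measurable. The samples were whole ovaries of C57BL/6 mice, 24 to 28 days old, that were either wild type or PR knockout (PR is the progesterone receptor), with 1 RNA sample and 1 GeneChip array for each of the 2 genotypes. Both groups had received 5 IU of the gonadotropin PMSG, which makes follicles grow, then after 48 h 5 IU of hCG, which starts ovulation, and ovaries were collected at 11 h. The labels give neither the disrupted part of the receptor gene nor how many mice went into a sample, and they name no promoter or Cre that would limit the knockout to one cell type.

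BMP ligands bind paired serine/threonine kinase receptors, which phosphorylate SMAD1, SMAD5 and SMAD9; these enter the nucleus with SMAD4. ID proteins are among the best known products of BMP target genes: they carry a helix-loop-helix but no DNA-binding region, and hold E-proteins and their partners off DNA. Gremlin-1 traps BMP2 and BMP4 outside the cell, whereas SMAD6 and SMAD7 act inside it as feedback inhibitors. In the follicle, oocyte, granulosa and theca cells make different BMP family ligands, which modulate steroid production and luteinization.

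The samples and arrays set the limits of what follows. Signals are MAS5 intensities in arbitrary units, and the median signal of each array (36.2 in the wild type, 37.95 in the knockout) served as the floor for a measurable signal. With 1 array per genotype there is no replicate spread and no test, so differences are set beside the spread over all 11316 measured genes and the disagreement between probe sets of 1 gene, whose SD on the log2 scale was 0.25 (4771 genes). The 3 probe sets of Pgr, the receptor's own gene, gave at most 36.5 on the wild-type array and 42.8 on the other, close to the floors, and so do not check the genotype labels. Granulosa (7 of 7 genes with a probe set), theca (3 of 3) and oocyte markers (7 of 7) were measurable on the arrays, 0 of 3 oviduct markers were, and of the adipocyte markers Adipoq was under both floors while Fabp4 was above them, at 335 (wild type) and 70.9 (knockout). Because whole ovaries were used, fewer cells of a type and less RNA per cell cannot be told apart.

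The start regions of Id2, Id4 and Grem1 are shown because these members had the widest gaps between genotypes over their probe sets, and that of Smad6 because a SMAD motif lay on its start. RefSeq promoter windows (250 bases before to 50 after the transcription start, GRCm38.p6) were at hand for 6 members. The stretches printed are the 250 bases before the start of Id2 (chr12:25096093-25096342, minus strand), Id4 (chr13:48260866-48261115, plus strand) and Grem1 (chr2:113758649-113758898, minus strand), and 50 bases around the start of Smad6 (chr9:64022050-64022099, minus strand). Capitals mark GGCGCC, GC-rich letters that BMP SMADs can bind, and, in Smad6, the SMAD palindrome GTCTAGAC.
Id2: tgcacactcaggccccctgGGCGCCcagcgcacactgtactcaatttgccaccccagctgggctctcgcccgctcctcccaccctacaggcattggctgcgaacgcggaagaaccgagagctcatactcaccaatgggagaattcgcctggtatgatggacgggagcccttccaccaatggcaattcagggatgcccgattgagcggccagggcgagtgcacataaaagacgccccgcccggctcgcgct
Id4: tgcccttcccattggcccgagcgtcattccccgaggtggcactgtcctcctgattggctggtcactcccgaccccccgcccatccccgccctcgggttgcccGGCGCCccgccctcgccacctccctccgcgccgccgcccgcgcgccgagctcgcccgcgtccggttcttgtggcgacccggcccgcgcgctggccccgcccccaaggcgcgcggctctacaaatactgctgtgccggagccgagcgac
Grem1: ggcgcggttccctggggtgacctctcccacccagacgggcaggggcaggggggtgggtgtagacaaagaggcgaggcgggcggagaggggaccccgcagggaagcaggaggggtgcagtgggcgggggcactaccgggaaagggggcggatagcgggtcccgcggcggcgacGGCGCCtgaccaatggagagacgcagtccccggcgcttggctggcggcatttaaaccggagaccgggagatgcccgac
Smad6: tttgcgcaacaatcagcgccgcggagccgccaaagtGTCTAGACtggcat

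GGCGCC, which reads the same on both strands, began 231 bases before the start of Id2, 148 before that of Id4 and 78 before that of Grem1. It was in the window of 3 of the 6 members and in 11.9% of all 32851 windows in the table. These windows are rich in G and C, with 63.3% for Id2, 73.3% for Id4 and 70.7% for Grem1 against a median of 52.7% over all windows. GTCTAGAC lay across the start of Smad6, from 4 bases before it, and was in 0.213% of all windows. Neither the cAMP response element TGACGTCA (1.79% of windows) nor the steroid receptor palindrome, GAACA and TGTTC separated by any 3 letters (0.0578% of windows), was in any of the 6 windows. All 4 motifs are palindromes, none overlapped another, and a match or its absence describes these letters only.

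Among the ID genes, Id2, Id3 and Id4 had lower signals in the knockout ovary and Id1 was nearly equal. Of the 8 ID probe sets, 7 had the lower signal in the knockout, beside 43.1% of all measured probe sets with 1 symbol. These 7 are 3 probe sets each of Id2 and Id4 and 1 of Id3, so they stand for 3 genes, and 1 of them, of Id4, differed by only -0.03 on the log2 scale. Log2 differences are given as knockout minus wild type throughout, and their median over the 4 ID genes, each by its brightest probe set, was -0.39, beside 0.06 over all measured genes.

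Id4 had the widest gap of the ID genes by its brightest probe set. This probe set gave a wild-type signal of 110.0 and a knockout signal of 54.7, a signal 2.01-fold lower. A further probe set gave 60.1 and 35.9, the latter under the floor, so the signal was at least 1.58-fold lower. The remaining one gave 51.1 and 49.9, a log2 difference of -0.03. The probe sets of Id4 thus disagreed, with an SD of 0.49 between their log2 differences against the 0.25 typical of a gene. The 2 SDs are not fully alike: the 0.25 leaves out probe sets under the floor on either array, and 1 Id4 signal was set to the floor. The mean log2 difference over the 3 Id4 probe sets was -0.57, or at least 1.48-fold lower, and -0.59 (1.51-fold) without the floor. All 3 were dim: among genes in the same of 10 equal bins of mean signal, the central 90% of log2 differences ran from -0.74 to 0.90, and the -1.01 of the brightest Id4 probe set lay below it.

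Id2, whose product also binds E-proteins, was lower by all 3 of its probe sets. The brightest gave a wild-type signal of 2109 and a knockout signal of 1628, 1.30-fold lower. The second gave 1641 and 1002, 1.64-fold lower, and the third 139.6 and 87.0, 1.60-fold lower. The probe set that stands for Id2 in the gene counts is therefore the one with the narrowest gap, and the mean of the log2 differences of all 3 was -0.59, or 1.504-fold lower.

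Id3 had 1 probe set, with a wild-type signal of 1750 and a knockout signal of 1328, 1.32-fold lower. Among genes in the highest of the 10 signal bins the central 90% of log2 differences ran from -0.58 to 0.39, so the Id3 value of -0.40 and the Id2 value of -0.37 by its brightest probe set lay inside it. Id1, a widely used readout of BMP SMAD activity, gave 493 and 510, a log2 difference of 0.05, with the sign turned to -0.002 after median centring. Its difference stood at percentile 49.3 of all measured genes, that is, in the middle.

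**Figure D1:**
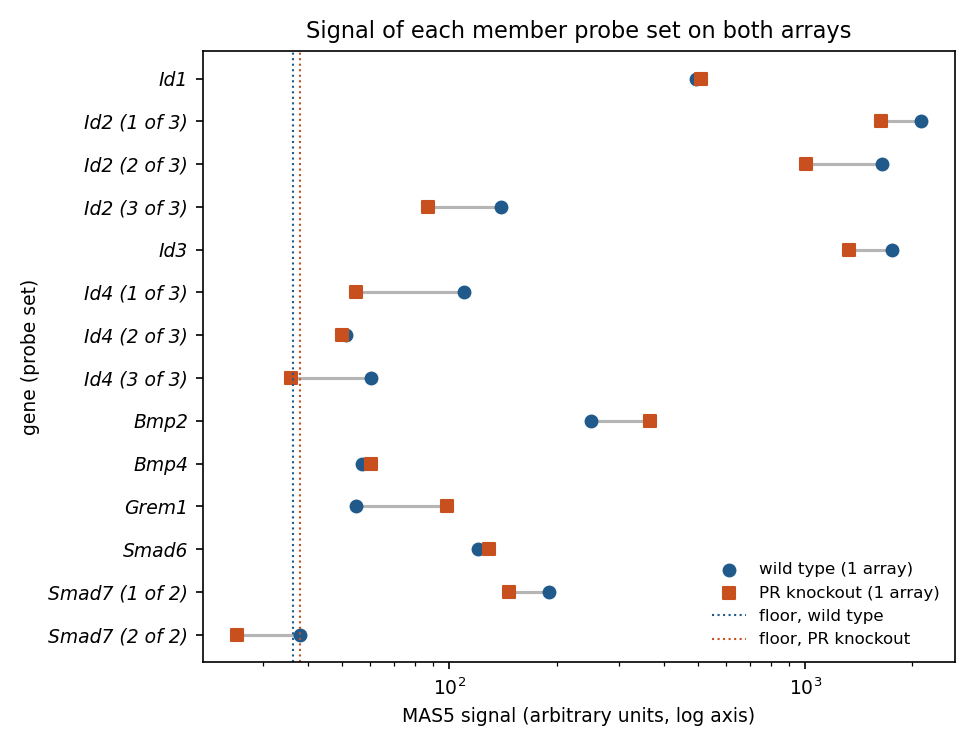
MAS5 signal (log axis, arbitrary units) of each of the 14 member probe sets on the wild-type (circle) and PR knockout (square) array, 1 array each, with each array's floor as a dotted line. All 3 Id2 probe sets lie lower in the knockout, the Id4 probe sets differ in how far apart the arrays are, and Grem1 and Bmp2 lie higher.

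The ligand gene Bmp2 and the antagonist gene Grem1 lay on the other side. Bmp2 gave a wild-type signal of 250 and a knockout signal of 367, 1.47-fold higher, just under the 1.5-fold threshold used for counts. Its log2 difference of 0.56 was at percentile 92.5 of all measured genes and at the upper end of the central 90% of its own signal bin (-0.49 to 0.56). Bmp4, a ligand of the same subfamily, gave 56.7 and 60.1, a log2 difference of 0.08, and its sign turned after quantile normalization (-0.002) and after removal of the loess trend (-0.02).

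Grem1, which oocyte factors are known to induce in cumulus cells, gave a wild-type signal of 54.6 and a knockout signal of 98.7, 1.81-fold higher. At a log2 difference of 0.86 it stood at percentile 98.1 of all measured genes. It was also dim, and its value lay just inside the central 90% of its signal bin (-0.74 to 0.90). It was read by a single probe set, so no second reading on the same arrays bears on it.

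Of the inhibitory SMAD genes, Smad7 was lower in the knockout by about as much as Id2 and Id3, and Smad6 was nearly equal. Smad6, whose product acts mainly on the BMP arm, gave a wild-type signal of 120 and a knockout signal of 130, a log2 difference of 0.11. Smad7, whose product blocks BMP, activin and TGF-beta receptors alike, gave 190 and 147, 1.30-fold lower, with a log2 difference of -0.37 at percentile 9.76 of all measured genes. Its second probe set gave 38.1 and 25.3, at and under the floors, and has no measurable fold.

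**Figure D2:**
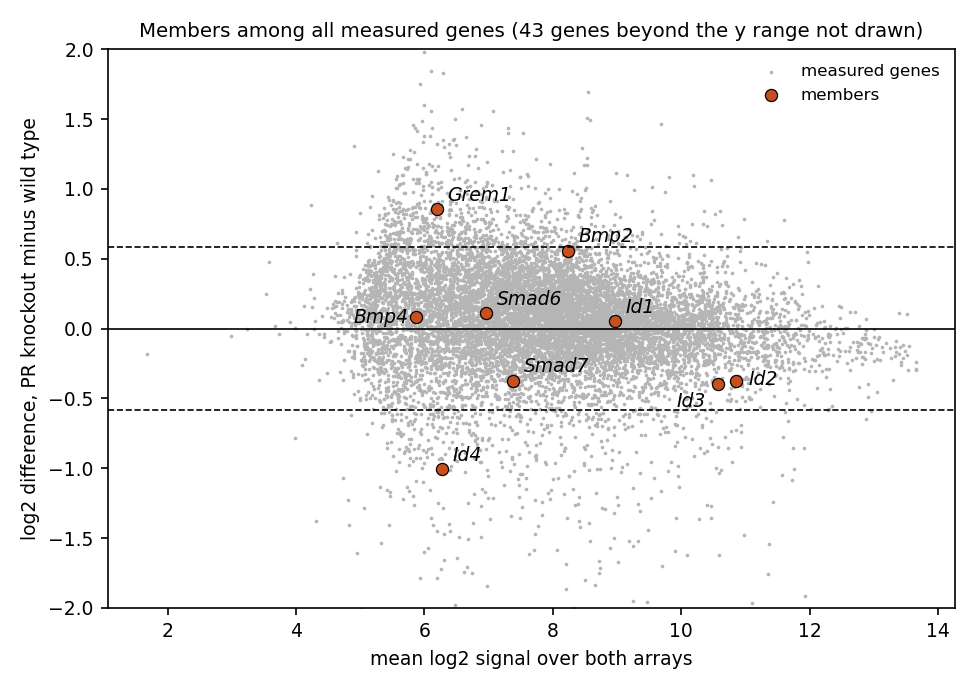
Log2 difference (PR knockout minus wild type) against mean log2 signal for all 11316 measured genes (grey, 43 beyond the y range not drawn) and the 9 members (labelled); dashed lines mark 1.5-fold. Id4 (-1.01) and Grem1 (0.86) lie outside the dashed lines and Bmp2 (0.56) just inside, and both genes outside are among the dim ones.

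By gene, 1 of 9 members, Id4, was at least 1.5-fold lower in the knockout, where 4.75% of all measured genes were, and 1 of 9, Grem1, was at least 1.5-fold higher, where 6.54% were. At 2-fold the counts were 1 lower and 0 higher, beside 1.72% and 1.15% of measured genes. By probe set, 4 of 14 were at least 1.5-fold lower (4.98% of 20267 measured probe sets) and 1 of 14 higher (6.63%). Those 4 read Id2 and Id4 only, a pair each, so they are not separate genes. The median log2 difference of the 9 members was 0.05, which is that of Id1, beside 0.06 over all measured genes; as a set the members did not lean one way, with 4 lower and 5 higher, of which Id1 and Bmp4 changed sign with scaling. The split of all measured genes at 1.5-fold depended on scaling, and 538 were lower and 740 higher as deposited. Median centring gave 637 lower and 591 higher, quantile normalization 613 lower and 567 higher, and removing the loess trend 673 lower and 517 higher. The member counts stayed at 1 and 1, with Id4 and Grem1, under those 3 scalings. With a floor at the 70th percentile, Id4, Grem1 and Bmp4 were not measurable and both counts were 0, and with the mean over probe sets the gene counted as lower was Id2 in place of Id4. Without a floor that mean put both Id2 and Id4 just past 1.5-fold lower, where 665 of 11316 genes were.

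**Figure D3:**
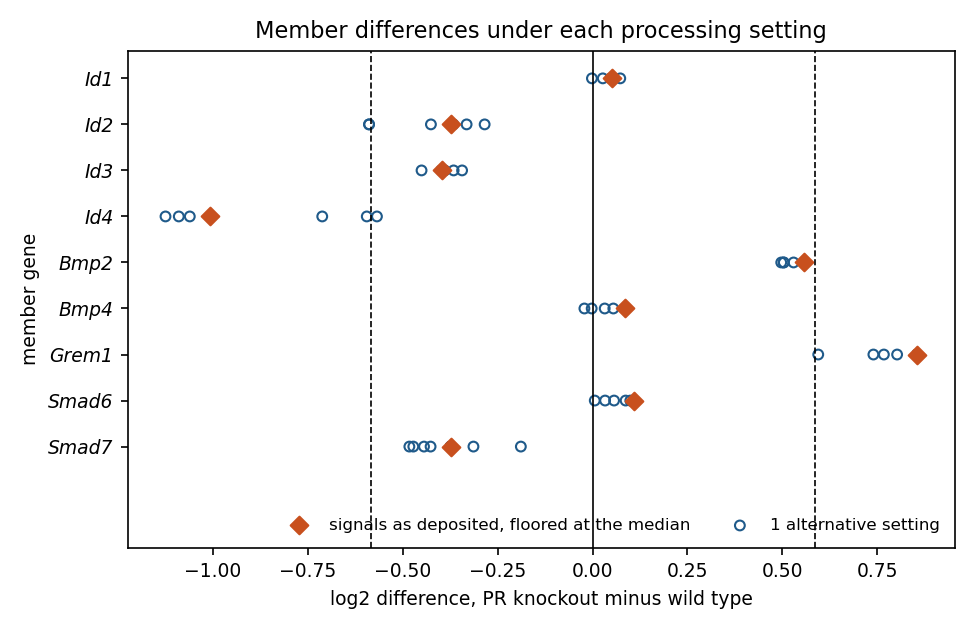
Log2 difference (PR knockout minus wild type) of each member gene with the signals as deposited (diamond) and under each of up to 9 alternative settings (open circles); dashed lines mark 1.5-fold. Id2, Id3, Id4 and Smad7 lie below 0 and Bmp2, Grem1 and Smad6 above 0 in every setting drawn, while Id1 and Bmp4 have values on both sides of 0.

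Upstream and downstream of the members, the rest of the pathway was taken as lists of 67 genes, of which 62 had a probe set and 49 were measurable. Of these, 1 was at least 1.5-fold lower and 5 were higher, where 4.75% and 6.54% of all measured genes were, so the counts in the lists below are few and near that background in total. Among the other ligand genes 6 of 13 were measurable, 0 of them 1.5-fold apart in either direction. The median log2 difference of these ligands was 0.06. The oocyte ligand gene Gdf9 gave a wild-type signal of 775 and a knockout signal of 859, 1.11-fold higher. All 11 receptor and co-receptor genes were measurable, with 0 lower, 2 higher and a median of 0.23. Bmpr1b, a type I receptor of granulosa cells, gave 372 and 606, 1.63-fold higher, and its probe sets ran from 0.42 to 0.75 on the log2 scale. The co-receptor gene Rgma gave 38.6 and 60.2, with the wild-type signal close to the floor, 1.56-fold higher. The type II receptor gene Bmpr2 gave 2398 and 2976, 1.24-fold higher.

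Of the SMADs that carry the BMP signal, 3 of 4 were measurable, with 0 of them 1.5-fold apart, and Smad4 gave 1532 and 1701, a log2 difference of 0.15. Of 19 other antagonists and modulators 13 were measurable, 1 lower and 0 higher, with a median of -0.07. As in all lists, each gene was counted by its brightest probe set, and other probe sets of a gene could differ. The gene counted was Chrdl2, a chordin-like BMP antagonist, with a wild-type signal of 83.2 and a knockout signal of 33.7 that was set to the floor, so that it was at least 2.19-fold lower. Thus Grem1 and Chrdl2, which both encode secreted antagonists, differed in opposite directions, and both were dim. Skil, a repressor of SMAD transcription, gave 1447 and 1072, 1.35-fold lower, and its 2 probe sets ran from -0.62 to -0.43 on the log2 scale. Other BMP-responsive transcription factor genes were measurable in 3 of 6 cases, with 0 past 1.5-fold, and Gata2 gave 118 and 84.1, a log2 difference of -0.49. The E-protein genes Tcf3, Tcf4 and Tcf12, whose products ID proteins bind, lay between -0.19 and 0.17 on the log2 scale by their brightest probe sets. Tcf12 gave 1272 and 1365. Over all measured probe sets, Tcf3 ran from -0.04 to 0.50, Tcf4 from -0.19 to 0.04 and Tcf12 from -0.19 to 0.16.

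**Figure D4:**
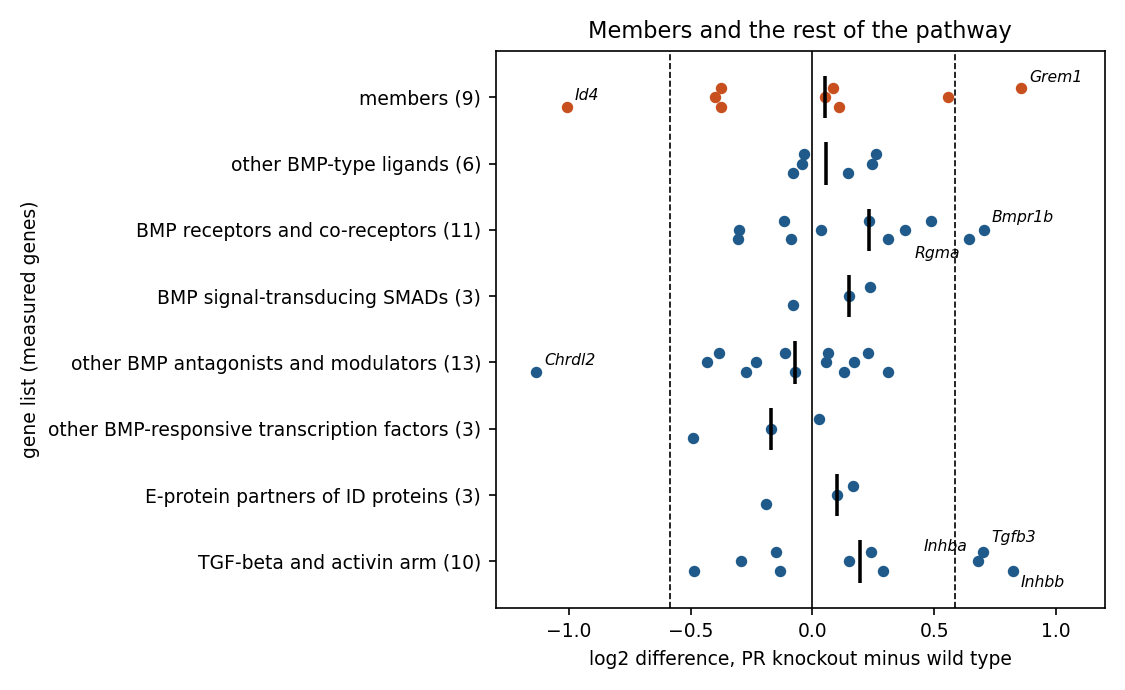
Log2 difference (PR knockout minus wild type) of each measurable member (top row) and of the other pathway genes by list, with the number of genes in brackets, the list median as a bar and 1.5-fold as dashed lines. Apart from Id4 and Grem1, the genes beyond the dashed lines are Chrdl2 on the lower side and Bmpr1b, Rgma, Tgfb3, Inhba and Inhbb on the higher side.

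Markers of several ovarian cell types also differed between the arrays. Unless stated, counts are of genes at least 1.5-fold apart, where 4.75% of all measured genes were lower and 6.54% higher. The lists are short, so a count of 1 in a list says little. Beside the higher Bmp2 and Grem1, granulosa markers were at least 1.5-fold higher in 3 of 7 (Bmpr1b, Inhbb and Foxl2). Their summed signals were 14089 (wild type) and 15603 (knockout) over all 7. The brightest granulosa markers, Inha and Nr5a2, had log2 differences of -0.06 and 0.09. Bmpr1b and Inhbb are also in the pathway lists, so their values here are the same readings and not further ones. Stromal markers were at least 1.5-fold higher in 2 of 6 (summed 9011 and 11167) and endothelial markers in 1 of 7 (summed 1244 and 1550). By sign alone, 5 of 6 stromal and 5 of 7 endothelial markers were higher. Cumulus expansion markers were lower in 4 of 4 (summed 2520 and 164). These sums, like the others here, were taken without the floor. In the knockout Has2 (8.87) and Ptgs2 (30.6) were under it, and Ptgs2 gave 1871 of the wild-type sum. Beside the lower Id2, Id3 and Id4, surface epithelium markers were at least 1.5-fold lower in 3 of 5 (summed 1115 and 665). Leukocyte markers were at least 1.5-fold lower in 1 of 4 measured and lower by sign alone in 3 of 4, with Itgam and Cd3e under both floors. The 4 measured summed to 489 and 543. Smooth muscle markers were 1.5-fold apart in 0 of 6 and oocyte markers in 0 of 7. All 7 oocyte markers were higher by less than that (summed 2360 and 2646), with a median log2 difference of 0.15 beside 0.06 over all measured genes. Gdf9 and Bmp15 among them are also in the pathway lists. The theca list had 1 of 3 at least 1.5-fold higher, and Fabp4, the 1 measurable adipocyte marker, was lower, by 4.72-fold. The part of these marker differences in the values of the ID genes, Bmp2 and Grem1 was not tested.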

How the data were processed

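RNA of whole ovaries was labelled from 100 ng of total RNA with a kit that primes at the 3′ end, per the labels' protocols, and hybridized to Affymetrix mouse genome GeneChips, 1 per genotype. The deposited values are linear intensities per probe set, which the authors computed with MAS5 in Affymetrix Expression Console version 1, per the submitters' processing notes. The mean after trimming 2% at each end was 150.0 on both arrays, so each had been scaled by 1 factor. The number of arrays limits the precision.

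Signals were used as deposited. Of 45101 probe sets, 64 controls were left out, and of the rest 34945 had 1 gene symbol in the platform annotation, 932 several and 9160 none. The floor was each array's 50th percentile. A gene counted as measurable if its brightest probe set (by mean log2 signal over both arrays) reached the floor on at least 1 array, and lower signals were set to the floor, which makes such folds lower bounds ("at least"). All 14 member probe sets reached the floor on at least 1 array, and 12 on both. The symbols of all 9 members matched RefSeq by gene ID. Calculations used Python 3.11.15, pandas 2.3.3 and statsmodels 0.14.6, and were tested on simulated data. The alternatives were 3 rescalings, other floors, an offset of 32, other choices of probe set and a 2-fold threshold, and 1 (the mean over probe sets without a floor) was added after seeing the data.

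The members, pathway lists, markers and motifs were chosen with earlier results of these data known. Every member was named with all its probe sets. From each pathway list, genes at least 1.5-fold apart (up to 3 per direction) and the brightest were named. Tgfb1 and the E-protein genes Tcf3 and Tcf4 were added after their values were seen. No gene was named for a like pattern, since 2 arrays give none.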

Additional observations from a re-analysis of the deposited data

How the results depend on the processing

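With the floor at the 70th percentile (120.9 in the wild type, 127.6 in the knockout) 6 member probe sets reached it on both arrays in place of 12, and 0 members were at least 1.5-fold lower and 0 higher. At a 2-fold threshold 0 members were higher. The median log2 difference of the members ran from -0.16 with that floor, where 6 members were left, to 0.05, and its sign turned after each of the 3 rescalings. The median over all measured genes also fell, from 0.06 as deposited to 0.003 (median centring), 0.03 (quantile normalization) and 0.008 (loess trend removed). With the 70th-percentile floor it was 0.04. With the mean over probe sets and no floor, an alternative added after seeing the data, 2 members (Id2 and Id4) were at least 1.5-fold lower. Under that setting 665 of 11316 genes were lower by as much. Of the log2 differences of single members under alternatives, 35 were identical to the reported value, many because the alternative could not change them (a gene with 1 probe set, or signals above the floor). A further 39 moved by less than the SD between probe sets of a gene and 4 by more: Id4 went to -0.71 and Grem1 to 0.59 with the offset of 32, and Id4 to -0.57 with the mean over probe sets and to -0.59 with that mean and no floor. Moves within that SD could still matter. With the mean over probe sets Id2 went from -0.37 to -0.59, past 1.5-fold. With the same mean Smad7 went from -0.37 to -0.19, or to -0.48 without the floor. Over all genes, the counts at 1.5-fold lower and higher were 322 and 265 of 8160 with the 70th-percentile floor. With the offset they were 383 and 354 of 11316. No paired analysis was possible because each genotype has 1 array. Dim signals limit what can be read of Id4, Bmp4 and Grem1.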

Other observations

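The TGF-beta and activin arm, which shares SMAD4 and the SMAD7 brake with the BMP arm, had 10 of 11 genes measurable. In the knockout 0 were at least 1.5-fold lower and 3 higher, where 4.75% and 6.54% of all measured genes were. The median log2 difference of the arm was 0.20, beside 0.06 over all measured genes. The activin subunit gene Inhbb gave a wild-type signal of 1113 and a knockout signal of 1968, 1.77-fold higher, and Inhba gave 648 and 1038, 1.60-fold higher. The ligand gene Tgfb3 gave 162 and 264, 1.63-fold higher, while Tgfb1 gave 434 and 310, 1.40-fold lower. The type I receptor gene Tgfbr1 gave 2208 and 1803, 1.22-fold lower. These are single measurements with no test.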
